A study of Mus musculus and Rattus norvegicus with 53 samples.

Results

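Schwann cells (SCs) sorted from the distal stump of transected mouse sciatic nerve (dSCs) were compared with SCs sorted from intact nerve (iSCs) at day 6, in libraries that each pooled the nerves of 3 mice. The comparison rests on 8 of the 53 samples of the series, 4 dSC pools and 4 iSC pools, chosen by their labels, and covers the 13751 genes that had enough counts to be tested. All mice were tdTom SC reporters, in which a Cre of the Schwann cell lineage switches on tdTomato from the Rosa26 locus, so the sorted cells carry every lineage in which that Cre was ever active. Males and females were 6 to 8 weeks old. The iSC pools came from the uncut nerve on the other side of transected mice, so they are not nerves of uninjured animals. The dSC pools came from the nerve beyond the cut, where axons had lost contact with their cell bodies. Separate single-nerve libraries of the same genotype, 5 of iSCs and 3 of dSCs at day 6, served as an independent repeat. Both pooled groups shared the reporter, the sort for tdTomato and the amplification of small amounts of RNA.

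An adult SC either wraps a large axon in myelin or ensheathes several small ones. After a cut, SCs beyond the lesion lose axonal contact, leave the differentiated state, divide, digest their own myelin, recruit and assist macrophages, and line up as tracks along which axons regrow. Loss of myelin and cholesterol genes and mesenchymal change are the best known parts of that response. The account here describes the other functions, in the order cell cycle, matrix, secreted signals, lysosome and uptake, ion and nutrient transport, adhesion, lipids, translation and stress.

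The pooled libraries held between 11927906 and 19011563 counts on genes, 39.1% to 43.0% of counted fragments, and detected 12432 to 14987 genes. No pair of libraries matched within counting noise. Values are CPM, gene counts per 1e+06 library counts scaled by the trimmed mean of M values (TMM), given for pools 1, 2, 4 and 5 of iSCs and pools 1, 2, 3 and 5 of dSCs in that order, and means are ± SD over n = 4 pools. A CPM is not divided by gene length, so levels are compared between groups and not between genes. Intact pool 5 stood apart from the other iSC pools and lay nearest to the dSC pools on the first principal component, which carried 38.7% of the variance. Distal pools 1 and 2 lay at opposite ends of the second component.

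Markers of other cell types were present in the sorted libraries. The 10 Schwann cell genes checked summed to 9415, 11926, 8891 and 5034 CPM in the iSC pools and 1901, 1430.0, 3314 and 1424 CPM in the dSC pools. The 15 fibroblast genes summed to 25553, 16989, 52313 and 79244 CPM in iSCs and 48869, 54961, 38373 and 45324 CPM in dSCs, so the groups overlapped. The 18 macrophage genes summed to 540.0, 285, 1743 and 7227 CPM in iSCs and 12032, 19982, 15183 and 15741 CPM in dSCs, with no overlap and with 3 of the 18 called higher. No macrophage marker was at 0 in all 8 libraries. Mast cell and granulocyte genes summed to 1052 CPM in intact pool 5 and to at most 61.8 CPM in the other 7 libraries. Perineurial markers summed to 1103 to 1364 CPM in iSCs and 276 to 895 CPM in dSCs. Of these 9 genes 2 were called lower and 0 higher. Itgb4, given below as an SC surface chain, is on that list and was its highest member in each iSC pool. Tenm2, also on it, was at 39.1, 15.5, 6.88 and 56.6 CPM in iSCs and 116, 101, 43.4 and 54.7 CPM in dSCs. The part that these other cell types had in the results was not tested. In bulk libraries fewer cells of a type and less RNA per cell cannot be told apart. The plot of summed levels shows these lists beside the functional lists.

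**Figure D1:**
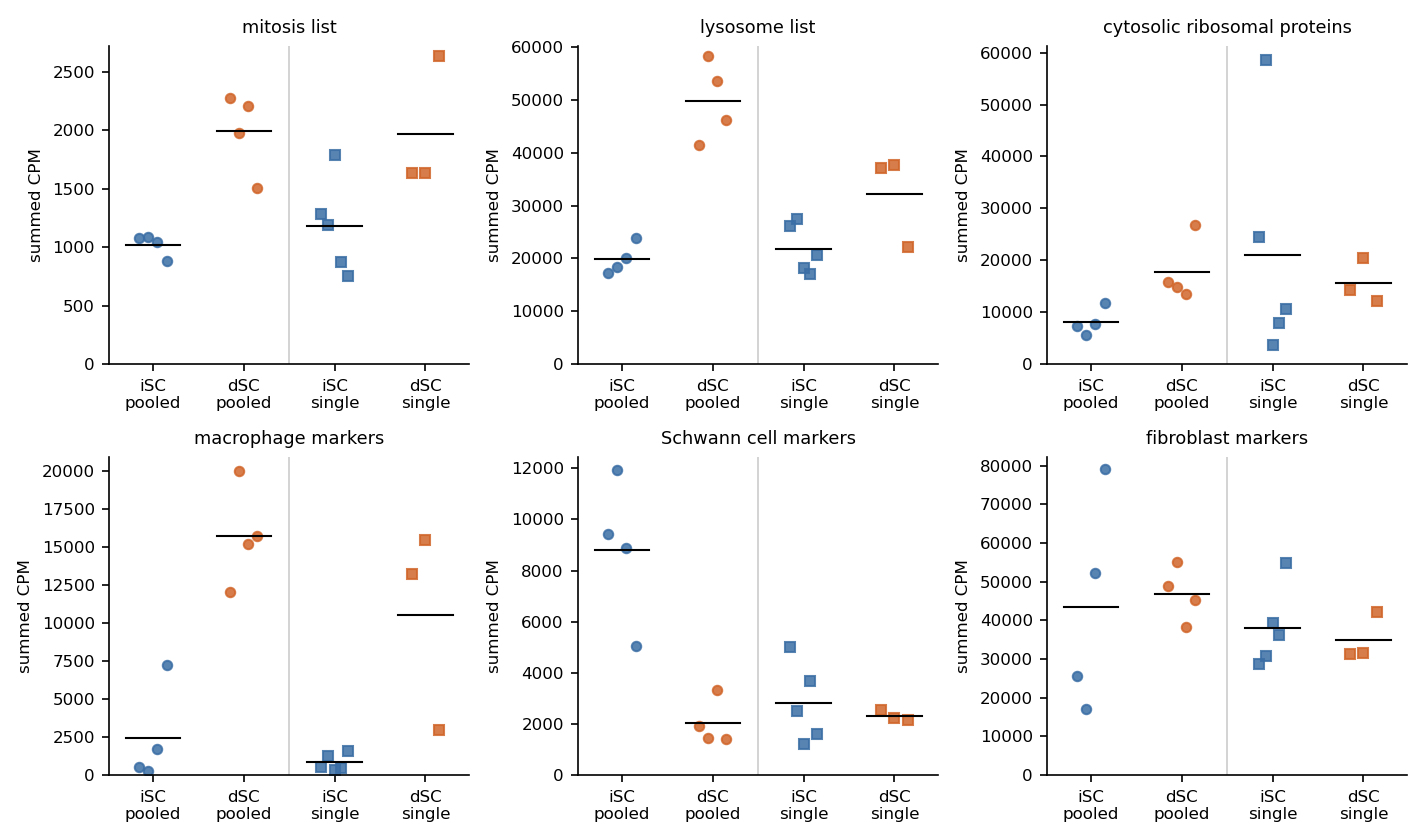
Summed CPM (linear axis from 0) of 3 gene lists and 3 marker lists in each library, as circles for pooled and squares for single nerves, with iSCs in blue, dSCs in orange and group means as bars. Macrophage markers and the lysosome list are higher in every dSC pool than in every iSC pool, fibroblast markers overlap, and intact pool 5 carries the most macrophage and fibroblast marker RNA of the iSC pools.

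The dSC pools differed from the iSC pools in 732 genes at an adjusted p under 0.05, of which 362 were higher (2.63% of the genes tested) and 370 lower (2.69%). Past 2.5-fold, 271 were higher (1.97%) and 322 lower (2.34%). The 4 dSC values lay wholly above the 4 iSC values for 1039 genes (7.56%) and wholly below for 1294 (9.41%). Pools 1, 2 and 5 of the regions came from the same animals, and with the pool number as a block 122 genes were higher and 165 lower. Leaving out intact pool 5 raised the number of calls to 1007, and leaving out another pool gave between 310 and 583. Genes that held with the block and without any library in turn numbered 89 higher (0.647%) and 106 lower (0.771%), and are called stable below.

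In the single nerves, 87 of the 89 stable higher genes and 93 of the 106 stable lower genes changed in the same direction, against 61.2% of all genes present in both data sets. Of all called genes the same direction was seen for 294 of 362 higher and 308 of 367 lower. The single nerves on their own gave 74 genes called higher (0.477%) and 12 called lower (0.0773%). The single iSC libraries were uneven. Nerves 0 and 1 detected 10572 and 10042 genes, beside 14155, 15060 and 14045 in nerves 3, 4 and 5. Endothelial markers summed to 1939 to 9386 CPM in the single iSC nerves and 222 to 1090 CPM in the iSC pools. The part of these differences in changes that did not repeat was not tested. A test of the difference between the pooled and the single-nerve change called 1 of 14803 genes (0.00676%), and DESeq2 called 141 of 16938. A gene that was not called may still have differed, so these counts do not measure how alike the data sets were.

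**Figure D2:**
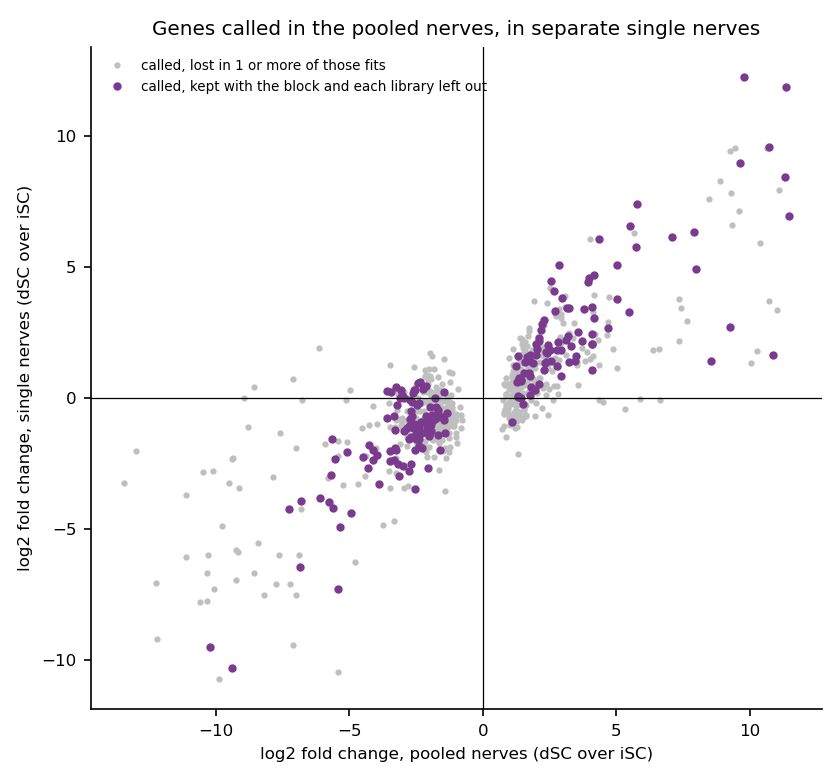
Log2 fold change of each called gene in the pooled nerves (horizontal) and in the independent single nerves (vertical), with stable genes in purple and the other called genes in grey. Both changes have the same sign for 87 of the 89 stable higher genes and 93 of the 106 stable lower genes. The exceptions include Egr2, whose values are given below.

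**Figure D3:**
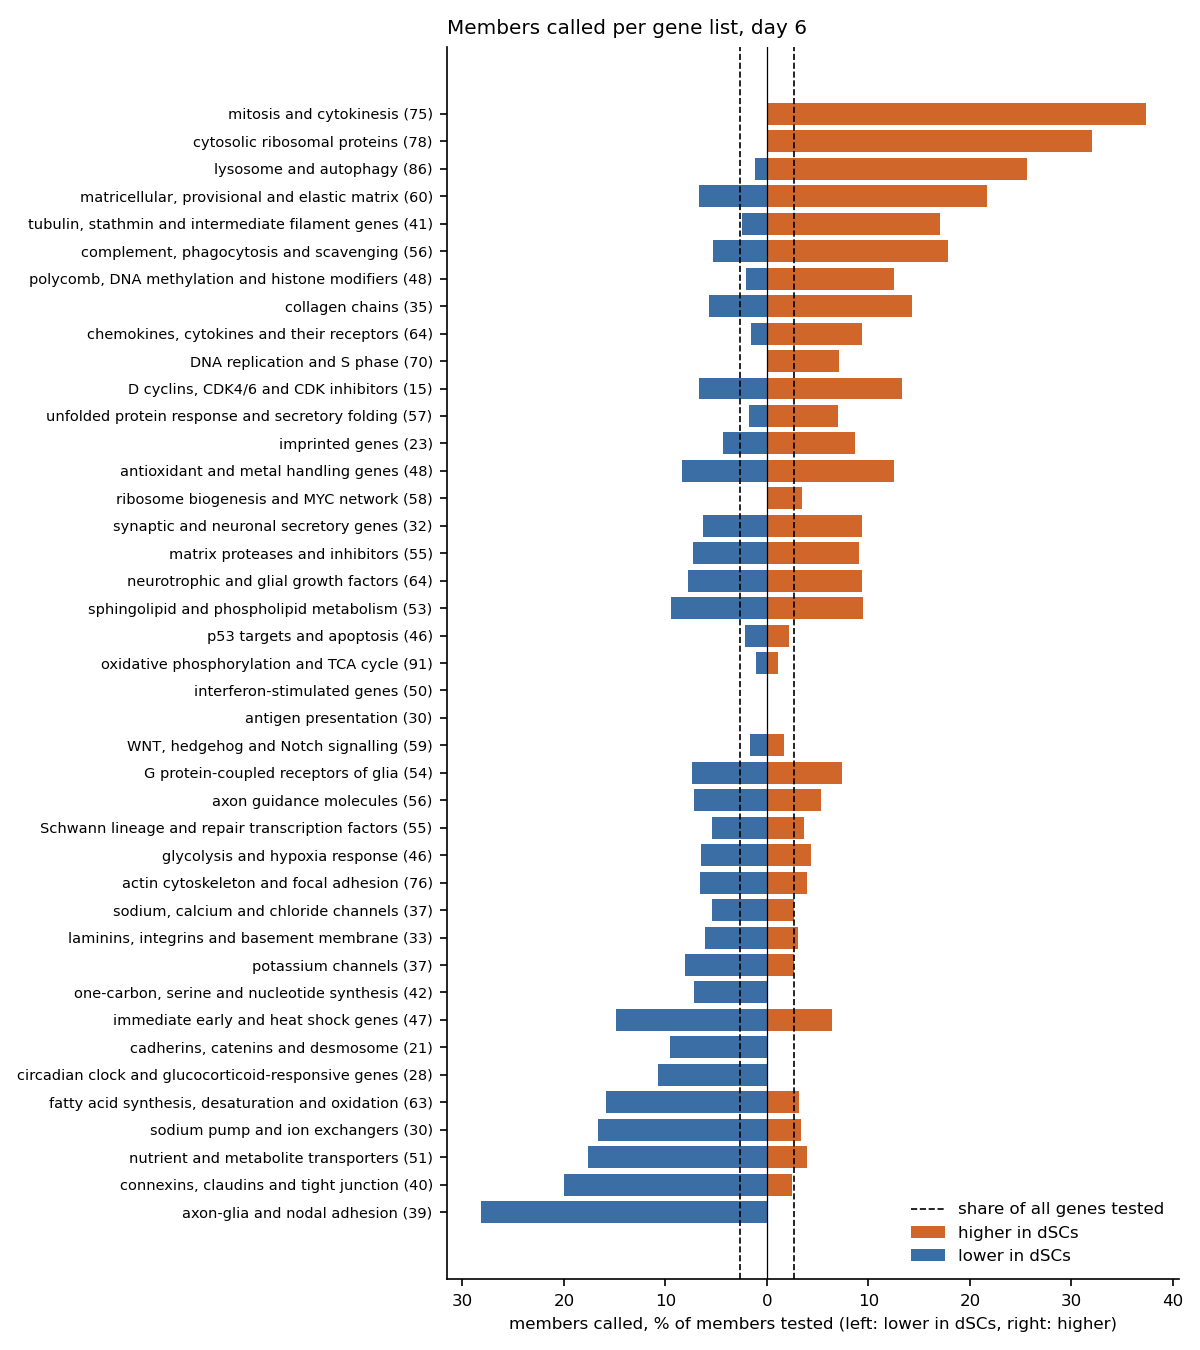
Share of the tested members of 41 gene lists that were called higher (right, orange) or lower (left, blue) in dSCs, with the number tested in brackets and dashed lines at the shares of all genes, 2.63% and 2.69%. Mitosis, ribosomal proteins and lysosome lead the higher calls and axon-glia adhesion the lower calls, while antigen presentation and interferon-stimulated genes have none.

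Part of the genes of mitosis and cytokinesis rose in dSCs. Of 75 members tested, 28 were called higher and 0 lower (37.3%), with a median log2 fold change of 2.83 beside -0.02 over all genes tested. With the block 12 were called, all higher, leaving out a library gave 17 (without intact pool 4) to 31 called higher, and 11 were stable. In the single nerves the median of the list was 1.41, and 25 of the 28 called genes changed the same way, and 1 member, Bub1, was called there. The summed level of the list was 1075, 1086, 1046 and 879 CPM in iSCs and 2278, 1978, 2212 and 1506 CPM in dSCs, so no pool overlapped. In the single nerves it was 754 to 1793 CPM in iSCs and 1633 to 2633 CPM in dSCs, where the groups overlapped.

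Ube2c, the ubiquitin-conjugating partner of the anaphase-promoting complex, was at 1.33, 0.763, 0.985 and 0.161 CPM in iSCs and 14.1, 26.0, 21.5 and 22.6 CPM in dSCs (log2 fold change 4.69, SE 0.53, adjusted p 0.000552). Prc1, which bundles microtubules at the spindle midzone, was at 8.58, 5.14, 3.86 and 3.71 CPM and then 74.4, 63.8, 53.8 and 39.6 CPM (3.44, SE 0.42, adjusted p 0.000701). Bub1, a kinase of the spindle checkpoint, had no count in any iSC pool and 41.8, 22.3, 9.01 and 12.3 CPM in the dSC pools, at least 413-fold higher when the iSC group is set to a floor of 3 counts (adjusted p 0.00114). All 3 genes were separate between groups by a wide margin. Aurkb, the kinase of the chromosomal passenger complex, was likewise without a count in iSCs and at 36.0, 9.55, 9.60 and 6.86 CPM in dSCs, at least 299.96-fold higher (adjusted p 0.000583). Its single-nerve levels were 0, 0, 12.6, 8.76 and 3.77 CPM in iSCs and 1.14, 0 and 45.8 CPM in dSCs, so the groups overlapped (1.62, SE 1.31, adjusted p 0.661). Aspm, a spindle pole protein, reached 15.2, 28.9, 9.38 and 11.1 CPM in dSCs against a single count in intact pool 4 (adjusted p 0.00169). The levels of these genes were low even where they were highest.

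Many promoters of mitotic genes carry a cell cycle homology region, a short element through which the DREAM and MuvB complexes restrain and then release transcription. The letters TTTGAA or TTCGAA, on either strand, stood in the 300 bases around the start (250 before and 50 after) of 47 of the 61 list members with a RefSeq promoter of the same symbol (77%), and of 19 of the 23 called members (82.6%), beside 21.7% of the 27025 genes and 19.2% of the 32851 promoters in the table. The match is a description of the sequence and not evidence of binding. The promoters of the 4 stable mitotic genes with the smallest adjusted p and a match within 100 bases before to 50 after the start are shown to display where the element sits, 5′ to 3′ on the strand of the gene (RefSeq sequence, build GRCm38.p6), with the matching letters in capitals.
Ube2c, chr2:164769829-164769978, plus strand: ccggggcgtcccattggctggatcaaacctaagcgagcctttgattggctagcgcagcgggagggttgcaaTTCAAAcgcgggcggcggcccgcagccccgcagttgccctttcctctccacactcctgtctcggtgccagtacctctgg
Prc1, chr7:80294351-80294500, plus strand: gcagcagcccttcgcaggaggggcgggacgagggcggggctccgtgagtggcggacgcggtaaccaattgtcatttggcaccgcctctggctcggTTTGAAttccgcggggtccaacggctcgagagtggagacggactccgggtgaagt
Bub1, chr2:127831810-127831959, minus strand: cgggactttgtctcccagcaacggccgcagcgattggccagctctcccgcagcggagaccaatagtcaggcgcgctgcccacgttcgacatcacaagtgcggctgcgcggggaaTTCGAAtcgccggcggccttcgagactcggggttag
Aspm, chr1:139454673-139454822, plus strand: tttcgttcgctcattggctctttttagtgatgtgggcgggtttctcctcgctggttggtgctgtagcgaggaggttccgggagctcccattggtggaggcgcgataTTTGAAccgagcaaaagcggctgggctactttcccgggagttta
Counted from the annotated start, the matches began at positions -29 in Ube2c, -5 in Prc1, 14 in Bub1 and 6 in Aspm.

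The growth phase regulators moved in both directions. Ccnd1, the D cyclin that drives cells out of quiescence, rose from 108, 101, 71.6 and 106 CPM in iSCs to 1078, 1258, 766 and 581 CPM in dSCs (log2 fold change 3.25, SE 0.31, adjusted p 0.000438), with 1.35 in the single nerves (adjusted p 0.0805). Cdkn1a, the p21 inhibitor of cyclin-dependent kinases, fell from 749, 812, 571 and 296 CPM to 169, 205, 189.6 and 136 CPM (-1.80, SE 0.35, adjusted p 0.0107, 0.0499 with the block). Among 70 genes of DNA replication and S phase 5 were called (7.14%, beside 5.32% of all genes), all higher. With the block 2 were called, without intact pool 1 or 2 or distal pool 5 only 1, and 1 was stable. That gene was Tk1, the thymidine kinase of the salvage pathway, at 0.639 ± 0.420 CPM in iSCs and 21.1 ± 4.86 CPM in dSCs (5.03, SE 0.61, adjusted p 0.000666). The list median was 0.55, well below that of the mitosis list, and the difference between the lists was not tested.

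Part of the provisional matrix genes rose. Of 60 members of the matricellular, provisional and elastic matrix list, 13 were higher and 4 lower (28.3%), and 6 of the higher and 0 of the lower were stable. With the block 8 were higher and 1 was lower. The list median was 0.25, so the rise concerned part of the list, and 16 of the 17 called genes kept their direction in the single nerves.

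Tnc, which encodes tenascin C, an adhesion-modulating protein of wounds and embryonic nerve, had the smallest adjusted p of any matrix gene. Its level was 1.48, 3.15, 5.30 and 5.81 CPM in iSCs and 642, 316, 619.7 and 582 CPM in dSCs (log2 fold change 7.10, SE 0.57, adjusted p 0.000118), and the single nerves gave 6.15 (SE 0.87, adjusted p 0.000332). Fbn2, the fibrillin of developing elastic fibres, was at 5.93, 8.24, 11.1 and 14.7 CPM and then 493, 285, 135 and 400.1 CPM (5.04, SE 0.61, adjusted p 0.000666), with 5.06 in the single nerves (adjusted p 1.8e-06). For both genes the lowest dSC pool stood far above the highest iSC pool. Postn, encoding periostin, rose from 174 ± 63.0 to 1240.5 ± 285 CPM (2.83, SE 0.34, adjusted p 0.000666). Thbs2, encoding thrombospondin 2, rose from 115 ± 26.8 to 461 ± 143 CPM (2.01, SE 0.27, adjusted p 0.00131), and Cd44, the hyaluronan receptor, from 84.5 ± 24.8 to 346 ± 61.4 CPM (2.03, SE 0.31, adjusted p 0.00254). Ogn, the small proteoglycan osteoglycin, went the other way, from 1505 ± 291 to 503 ± 154 CPM (-1.58, SE 0.28, adjusted p 0.00579, 0.0508 with the block).

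Collagen chains split. Of 35 tested, 5 were higher and 2 lower (20%, beside 5.32% of all genes). Col18a1, the basement membrane collagen that yields endostatin, rose from 89.2, 125, 216 and 225 CPM to 806, 477, 1166 and 775 CPM (log2 fold change 2.30, SE 0.37, adjusted p 0.00306), and Col5a2, a chain that regulates fibril width, from 441 ± 98.8 to 1093 ± 149 CPM (1.31, SE 0.27, adjusted p 0.0139). Col5a3, another type V chain, fell from 364 ± 70.7 to 132 ± 24.8 CPM (-1.46, SE 0.28, adjusted p 0.00928), but the single nerves gave 0.24. Matrix proteases split as well, with 5 of 55 higher and 4 lower (16.4%), and 1 higher and 2 lower with the block. Mmp19 rose from 66.7 ± 12.1 to 195 ± 17.1 CPM (1.55, SE 0.22, adjusted p 0.00162). Adam10, the sheddase that cuts many membrane proteins, fell from 796 ± 242 to 287 ± 49.9 CPM (-1.47, SE 0.27, adjusted p 0.00705), and Mmp15, a membrane-type protease, from 125 ± 44.0 to 28.4 ± 7.42 CPM (-2.14, SE 0.37, adjusted p 0.00524), with 0.47 in the single nerves. Col1a1, Col1a2, Col3a1 and Dcn, which fibroblasts express strongly, overlapped between the groups, and intact pool 5 held the highest iSC level of each.

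**Figure D4:**
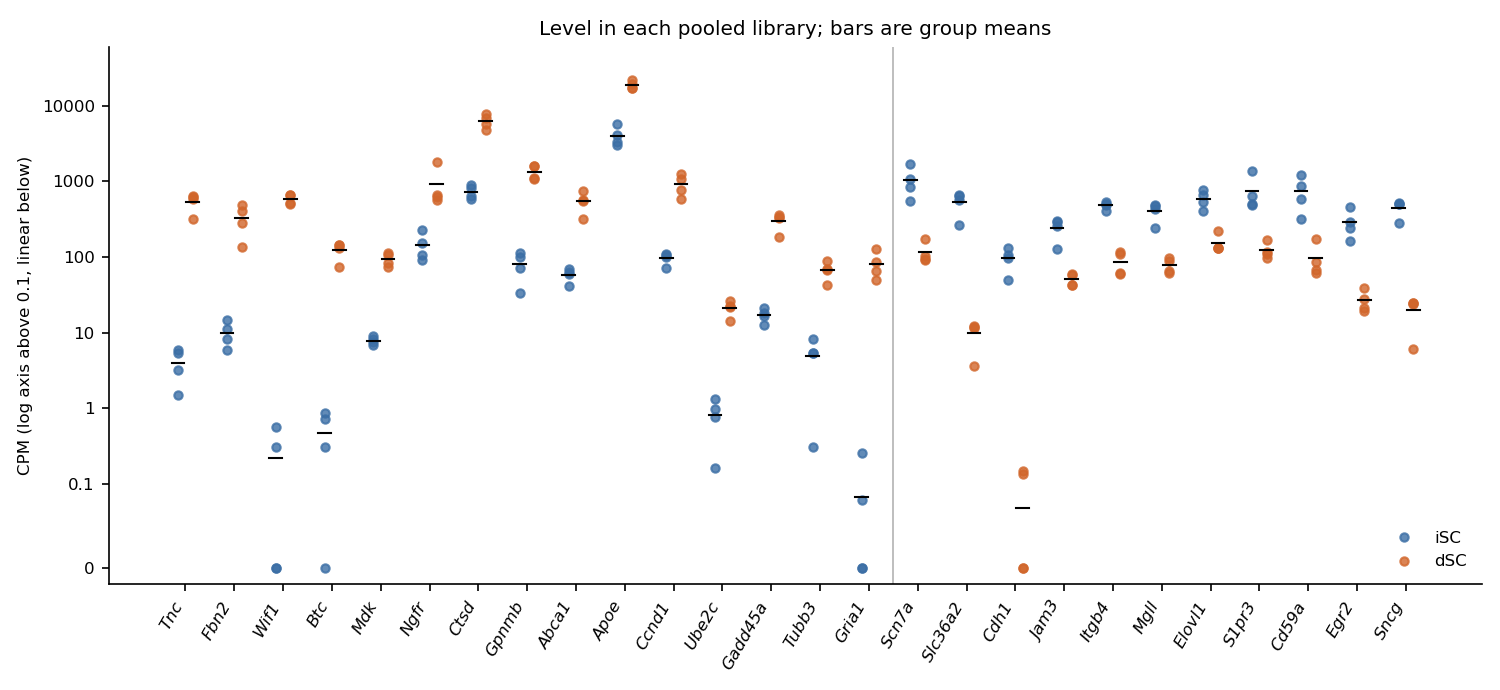
CPM of 26 stable genes in each pooled library (log axis above 0.1 CPM, linear below), with iSC pools in blue, dSC pools in orange and group means as bars. The 15 genes to the left of the line are higher in every dSC pool and the 11 to its right are lower in every dSC pool.

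Secreted signals and their receptors changed in both directions. Of 64 neurotrophic and glial growth factor genes 6 were higher and 5 lower (17.2%, beside 5.32% of all genes), with 3 higher and 1 lower under the block. Btc, encoding the ErbB ligand betacellulin, was at 0.858, 0.712, 0.303 and 0 CPM in iSCs and 130.0, 74.3, 145 and 146 CPM in dSCs (log2 fold change 7.99, SE 0.93, adjusted p 0.000583), with 4.93 in the single nerves (adjusted p 0.0153). Mdk, encoding the heparin-binding growth factor midkine, rose from 7.41, 6.77, 8.33 and 8.87 CPM to 83.5, 105, 114 and 73.2 CPM (3.58, SE 0.38, adjusted p 0.000438). For both, each dSC pool lay far above each iSC pool. Ngfr, the low-affinity neurotrophin receptor p75 that marks immature and repair SCs, rose from 152, 231, 92.6 and 108 CPM to 627, 665, 1801 and 571 CPM (2.65, SE 0.47, adjusted p 0.0056), with 4.08 in the single nerves (adjusted p 0.00874).

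Gdnf and Osm had no count in any iSC pool. Gdnf, a survival factor for motor neurons, reached 9.41, 4.44, 9.90 and 20.1 CPM in dSCs, at least 212-fold higher (adjusted p 0.0142), but was not called with the block (adjusted p 0.0921). Osm, a cytokine of the interleukin 6 family, reached 18.7, 12.4, 5.54 and 18.7 CPM, at least 268-fold higher (adjusted p 0.00233, 0.0534 with the block). On the side of loss, Dhh, the hedgehog ligand with which SCs organise the perineurium, fell from 299, 406, 316 and 148 CPM to 13.6, 42.4, 82.7 and 31.9 CPM (-2.78, SE 0.47, adjusted p 0.00459). Erbb3, the receptor through which axonal neuregulin sustains SCs, fell from 107 ± 55.4 to 24.5 ± 14.8 CPM (adjusted p 0.0454) but its pools overlapped and the call was lost with the block (0.154) and without intact pool 2 (0.138), and the single nerves gave 0.86. Of 59 WNT, hedgehog and Notch genes 1 was higher and 1 lower (3.39%), a share below that of all genes called (5.32%). The higher gene was Wif1, a secreted WNT inhibitor, which had the largest increase of all well expressed genes, from 0, 0, 0.303 and 0.565 CPM to 501, 657, 522 and 669 CPM (11.47, SE 1.95, adjusted p 0.0044, 0.0318 with the block), with 6.95 in the single nerves (adjusted p 0.128).

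Guidance molecules included a pair of semaphorins that moved apart. Sema4f rose from 2.73, 1.12, 0.682 and 0.403 CPM to 87.0, 13.9, 88.7 and 85.3 CPM (log2 fold change 5.79, SE 0.88, adjusted p 0.00233), with 7.39 in the single nerves (adjusted p 0.0093). Sema3b, a secreted repellent, fell from 1231, 1734, 1534 and 737 CPM to 172, 52.3, 271 and 139 CPM (-3.05, SE 0.47, adjusted p 0.00254), while the single nerves gave 0.29 with an SE of 0.94. Only 3 of 56 guidance genes were higher and 4 lower (12.5%, beside 5.32% of all genes), with 1 in each direction under the block.

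Many lysosomal genes rose. Of 86 members of the lysosome and autophagy list 22 were higher and 1 lower (26.7%), 7 higher and 0 lower with the block, and the same number was stable. The list sum was 17166, 18463, 20139 and 23906 CPM in iSCs and 41479, 58255, 53558 and 46133 CPM in dSCs. In the single nerves it was 17002.5 to 27488.5 CPM in iSCs and 22068 to 37649 CPM in dSCs, so the groups overlapped there. In the single nerves 20 of the 23 called genes kept their direction. The macrophage marker sum given above moved with this list, as did that of the complement list below, and its part in them was not tested.

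Ctsd, encoding cathepsin D, the main aspartic protease of the lysosome, rose from 579, 633, 814 and 891 CPM to 4764, 5696, 7778 and 6849.6 CPM (log2 fold change 3.10, SE 0.32, adjusted p 0.000438), with 2.19 in the single nerves (adjusted p 0.0582). Gpnmb, a glycoprotein of stressed lysosomes, rose from 70.8, 112, 101 and 33.6 CPM to 1114, 1617, 1583 and 1089 CPM (4.09, SE 0.63, adjusted p 0.0026). Atp6v0d2, a subunit of the proton pump that is typical of macrophages and osteoclasts, rose from 0, 0, 1.51 and 0.807 CPM to 45.1, 174, 222 and 107 CPM (7.91, SE 1.24, adjusted p 0.00279). The groups did not overlap for any of these genes. Psap, the precursor of the saposins that present sphingolipids to their hydrolases, rose from 1827 ± 82.8 to 5408 ± 716 CPM (1.57, SE 0.25, adjusted p 0.00322).

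Of 56 complement, phagocytosis and scavenging genes 10 were higher and 3 lower (23.2%, beside 5.32% of all genes), and with the block 3 in each direction. Without intact pool 5, 20 were higher and 3 lower. Abca1, the transporter that loads cholesterol onto lipoproteins, rose from 59.9, 41.6, 69.5 and 63.3 CPM to 749, 568, 322 and 548 CPM (log2 fold change 3.22, SE 0.38, adjusted p 0.000605). Apoe, the lipoprotein that carries it away, rose from 3273, 5713, 3070.3 and 4114 CPM to 19633, 21748, 17166 and 17090.5 CPM (2.23, SE 0.41, adjusted p 0.00708), with 2.83 in the single nerves (adjusted p 0.0378). Lgals3, encoding the glycan-binding galectin 3, rose from 201, 271, 177 and 217 CPM to 859.6, 584, 919 and 603 CPM (1.78, SE 0.27, adjusted p 0.00254). The groups did not overlap for any of these 3 genes.

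Cd59a, which protects cells from the complement membrane attack complex, fell from 862, 1216, 593 and 318 CPM to 85.7, 60.9, 172 and 66.8 CPM (log2 fold change -2.95, SE 0.47, adjusted p 0.00298). Gulp1, an engulfment adaptor, fell from 166 ± 67.2 to 38.8 ± 10.7 CPM (-2.10, SE 0.33, adjusted p 0.0026). Trem2, a microglial and macrophage receptor for lipids, was at 0.156, 0.458, 11.3 and 19.8 CPM in iSCs and 199, 245, 143 and 248 CPM in dSCs (4.72, SE 1.08, adjusted p 0.0238, 0.0932 with the block and 0.0624 without intact pool 4). Its iSC level was highest in pools 4 and 5, which also held the most macrophage marker RNA. Ctss, encoding the cathepsin of antigen-presenting cells, showed the same, at 19.6, 9.66, 120.1 and 538 CPM and then 1196, 1956, 1728 and 1138 CPM, and was not called (3.13, SE 0.95, adjusted p 0.0814).

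In the pooled nerves no gene of antigen presentation or of the interferon response was called. By edgeR's quasi-likelihood test 0 of 30 antigen presentation genes passed, with 3 at an unadjusted p under 0.05 and 1 called by DESeq2. Of 50 interferon-stimulated genes 0 passed, with 1 at an unadjusted p under 0.05 and 0 called by DESeq2. Among the single nerves 2 of the 30 antigen presentation genes were called, both higher, with 5 by DESeq2, and 0 of the 50 interferon-stimulated genes, with 6 at an unadjusted p under 0.05 and 1 by DESeq2. Without intact pool 5 the counts were 5 and 3, all higher, and the median of the interferon list went from -0.25 to 0.60. It was 0.04 with the lane files as a covariate, 0.0014 without distal pool 1 and -0.70 in the single nerves, so the list showed no settled direction. Cd74, the invariant chain, was at 93.3, 75.7, 344 and 2843 CPM in iSCs and 897, 1658, 2268 and 1310.2 CPM in dSCs (adjusted p 0.774). B2m, the light chain of class I molecules, was at 1384 ± 493 and 2055 ± 622 CPM (adjusted p 0.475). Of 64 chemokine and cytokine genes 6 were higher and 1 lower (10.9%, beside 5.32% of all genes), 1 and 0 with the block, and 16 and 2 without intact pool 5.

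Several ion transport genes fell, but few channel genes were called. Of 37 potassium channel genes 1 was higher and 3 lower (10.8%, beside 5.32% of all genes), and 0 and 2 with the block. In the single nerves 1 of those 4 kept its direction. Of 37 sodium, calcium and chloride channel genes 1 was higher and 2 lower (8.11%), and 0 and 2 with the block. The median log2 fold change of that second list was 0.34 in the pooled and -0.37 in the single nerves. Scn7a, a sodium channel that senses extracellular sodium in nonmyelinating SCs, fell from 1073, 1724, 842 and 553 CPM to 91.9, 92.7, 104 and 170.4 CPM (log2 fold change -3.19, SE 0.35, adjusted p 0.000481), with -2.52 in the single nerves (adjusted p 0.0562). Of 30 pump and exchanger genes 5 were lower and 1 higher (20%), and 3 lower and 0 higher with the block. Kcna2, a voltage-gated potassium channel, was at 386 ± 159.6 CPM in iSCs and 44.1 ± 13.7 CPM in dSCs (-3.13, SE 0.65, adjusted p 0.0153, 0.0407 with the block), but the call was lost without distal pool 5 (0.0572) and the single nerves gave 0.24 with an SE of 1.37.

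Among nutrient transporters more were lower than higher, with 9 of 51 lower and 2 higher (21.6%, beside 5.32% of all genes). With the block 5 were lower and 0 higher. Slc36a2, a proton-coupled carrier of small amino acids, fell from 573, 635, 670.4 and 264 CPM to 11.8, 12.2, 11.6 and 3.66 CPM (log2 fold change -5.77, SE 0.90, adjusted p 0.00272), with -4.00 in the single nerves (adjusted p 0.423). Slc1a5, the glutamine carrier, fell from 240.3 ± 60.1 to 62.0 ± 15.8 CPM (-1.95, SE 0.33, adjusted p 0.0042), and Slc27a1, a fatty acid carrier, from 217 ± 82.7 to 58.0 ± 13.6 CPM (-1.90, SE 0.33, adjusted p 0.0056). Psat1, an enzyme of serine synthesis and no transporter, fell from 97.6 ± 21.7 to 32.2 ± 6.49 CPM (-1.60, SE 0.32, adjusted p 0.012).

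Some adhesion and junction genes were called lower, a minority of each list. Of 39 axon-glia and nodal adhesion genes 11 were lower and 0 higher (28.2%), 5 lower with the block and 3 stable. Their median log2 fold change was -1.34 in the pooled nerves and 0.56 in the single nerves, and 7 of the 11 called genes kept their direction there. The Schwann cell marker sum moved with this list in the pools, and in the single nerves it was 1230.4 to 5005 CPM in iSCs and 2156 to 2537 CPM in dSCs, where the groups overlapped. The part of that sum in the difference was not tested.

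Cdh1, encoding E-cadherin, the adhesion molecule of noncompact myelin, fell from 97.6, 105, 131 and 49.8 CPM to 0, 0.135, 0.148 and 0 CPM (log2 fold change -10.22, SE 1.92, adjusted p 0.00872), with -9.51 in the single nerves (adjusted p 0.208). Jam3, a junctional adhesion molecule, fell from 289.9, 298, 260.3 and 129 CPM to 57.8, 42.8, 42.0 and 59.0 CPM (-2.28, SE 0.29, adjusted p 0.000982). Gjc3, a glial connexin, fell from 192 ± 55.3 to 27.9 ± 12.7 CPM (-2.78, SE 0.40, adjusted p 0.00175). Of 40 connexin, claudin and tight junction genes 8 were lower and 1 higher (22.5%), and 3 lower and 0 higher with the block. Of 33 laminin, integrin and basement membrane genes 1 was higher and 2 lower (9.09%, beside 5.32% of all genes). Itgb4, the laminin-binding chain of the mature SC surface, fell from 501, 539, 484 and 406 CPM to 115, 61.7, 109.6 and 58.9 CPM (-2.48, SE 0.32, adjusted p 0.000984), and Itga5, the fibronectin-binding chain, rose from 25.0 ± 7.42 to 96.1 ± 19.6 CPM (1.94, SE 0.30, adjusted p 0.00273), with 0.30 in the single nerves. Itga6, the partner chain of Itgb4, fell from 629, 768, 545 and 230.4 CPM to 235, 127, 158 and 112 CPM (-1.78, SE 0.37, adjusted p 0.0141), with overlap between groups and with the call lost without intact pool 1 or 2 or distal pool 2 or 5 (up to 0.0547).

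Cadm3, a nectin-like cell adhesion molecule, fell from 90.7, 105, 257 and 183 CPM to 15.2, 22.1, 30.1 and 34.8 CPM (log2 fold change -2.64, SE 0.53, adjusted p 0.0122), with -0.16 in the single nerves. Lgi4, a secreted SC protein needed for axon sorting, fell from 437 ± 198 to 81.3 ± 42.2 CPM (-2.43, SE 0.39, adjusted p 0.00322), and Fxyd3, a regulator of the sodium pump, from 141 ± 39.2 to 24.0 ± 6.32 CPM (-2.55, SE 0.34, adjusted p 0.00104). The exons of Lgi4 (mm9, chr7:31844361-31855954, plus strand) and Fxyd3 (chr7:31853191-31861723, minus strand) overlap, and no strand was kept in these libraries, so reads of the shared stretch cannot be told apart. Exons of Ccnd1, Cd74, Ctsd, Ddn, Elovl1, Gadd45a, H19, Itgb4, Lrrtm4, Mdk, Mgll, Mmp19, Ndrg1, Prdx5, Rpl15, Rpl7a, Scd2, Tk1, Tnc and Ube2c also overlap those of another annotated gene. The single nerves gave 0.56 for Lgi4 and 0.28 for Fxyd3.

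**Figure D5:**
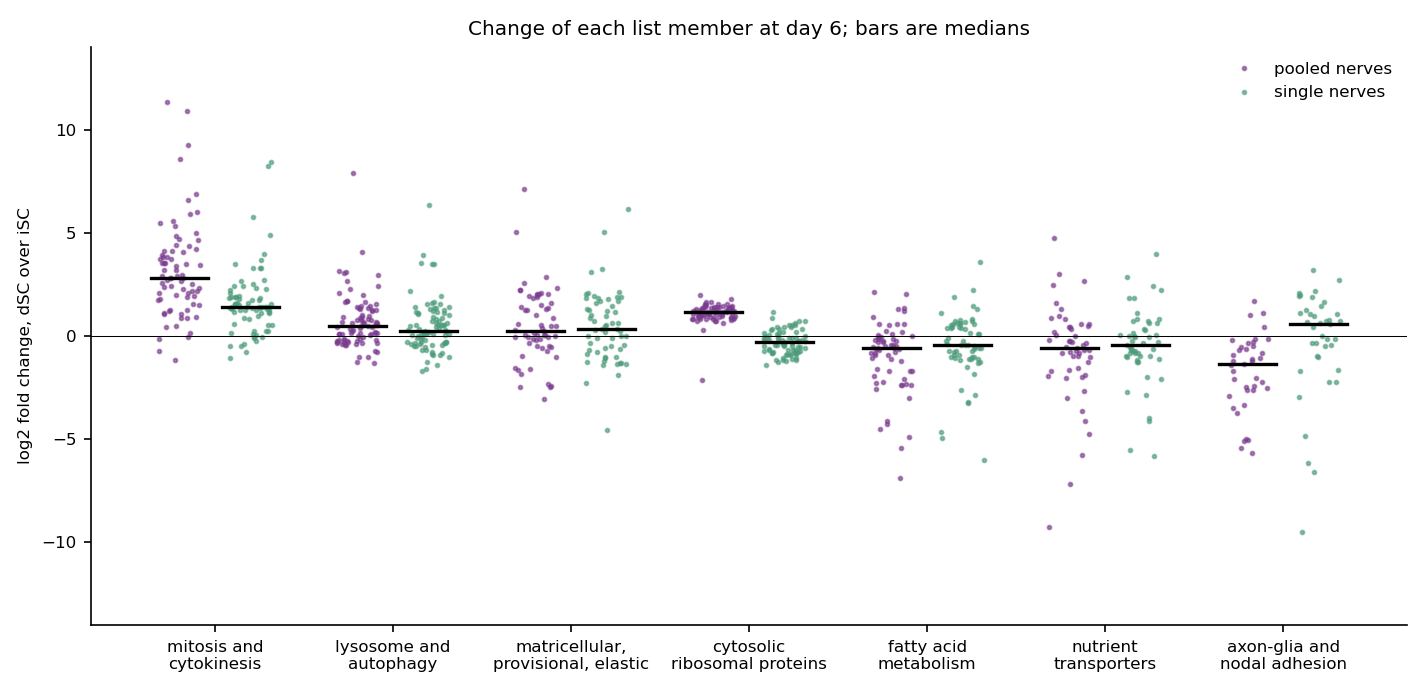
Log2 fold change (dSC over iSC) of each tested member of 7 gene lists, in pooled nerves (purple) and single nerves (green), with medians as bars. The medians of the mitosis and lysosome lists lie above 0 and those of the fatty acid and transporter lists below 0 in both data sets. The medians of ribosomal proteins and of axon-glia adhesion change sign between the data sets.

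Several lipid enzymes outside the cholesterol pathway fell. Of 63 genes of fatty acid synthesis, desaturation and oxidation 10 were lower and 2 higher (19%, beside 5.32% of all genes). With the block 5 were lower and 0 higher, and 4 of the lower were stable. Elovl1, which extends saturated fatty acids to the very long chains of myelin lipids, fell from 529, 671, 762 and 403 CPM to 133, 133, 222 and 132 CPM (log2 fold change -1.93, SE 0.26, adjusted p 0.00114). Mgll, the lipase that degrades the endocannabinoid 2-arachidonoylglycerol, fell from 469.9, 494, 426 and 241 CPM to 89.6, 64.7, 97.4 and 61.8 CPM (-2.38, SE 0.31, adjusted p 0.00104). Fads1, a desaturase of polyunsaturated fatty acids, fell from 388 ± 145 to 77.6 ± 35.0 CPM (-2.32, SE 0.38, adjusted p 0.00335). Scd2, the stearoyl desaturase, fell from 1649 ± 490.4 to 352 ± 142 CPM (-2.23, SE 0.32, adjusted p 0.00171), but the single nerves gave 0.33 with an SE of 0.38. The higher genes were Fabp5, a fatty acid chaperone, and Plin2, which coats lipid droplets, and both lost the call with the block (adjusted p 0.0542 and 0.0548).

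Of 53 sphingolipid and phospholipid genes 5 were higher and 5 lower (18.9%, beside 5.32% of all genes), and 2 higher and 4 lower with the block. The higher calls included Psap, given above with the lysosome. The lower included Cers2, the synthase of very long chain ceramides, from 734 ± 188 to 232 ± 107 CPM (log2 fold change -1.66, SE 0.32, adjusted p 0.0101), and Pla2g16, a phospholipase, from 154 ± 24.3 to 27.3 ± 10.8 CPM (-2.50, SE 0.33, adjusted p 0.00109). S1pr3, a receptor for sphingosine 1-phosphate, fell from 645, 1386, 504 and 484 CPM to 96.2, 109, 169.6 and 115 CPM (-2.62, SE 0.37, adjusted p 0.00162).

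Part of the cytosolic ribosomal protein genes rose in the pooled nerves. Of 78 tested, 25 were higher and 0 lower (32.1%), 77 had a log2 fold change above 0, and the median was 1.17. With the block 5 were called and 2 were stable. Leaving out a library gave between 3 calls and 56, the most without intact pool 5. In the single nerves the median was -0.31, 0 were called by edgeR, 0 by DESeq2 and 0 at an unadjusted p under 0.05, and 6 of the 25 called genes kept their direction. The test of the difference between the data sets called none of these genes, which does not show that their changes were alike. The list sum was 7290.3, 5645, 7731 and 11826 CPM in pooled iSCs, 15716, 14846, 13544 and 26828 CPM in pooled dSCs, and ranged from 3706 to 58625 CPM over the single iSC nerves. Rpl15, a protein of the large subunit, rose from 175 ± 20.4 to 372 ± 30.4 CPM (1.09, SE 0.18, adjusted p 0.00406), and Rpl7a from 106 ± 11.6 to 285 ± 107 CPM (1.42, SE 0.26, adjusted p 0.00651). Many ribosomal protein genes have processed pseudogenes with nearly the same sequence, so their counts are uncertain. Of 58 ribosome biogenesis and MYC network genes 2 were higher and 0 lower, a share of 3.45% beside the 5.32% of all genes.

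Of 91 genes of oxidative phosphorylation and the TCA cycle 1 was higher and 1 lower (2.2%, beside 5.32% of all genes), 0 with the block. Of 46 glycolysis and hypoxia genes 2 were higher and 3 lower (10.9%), with 1 and 2 under the block. Ndrg1, a hypoxia-responsive gene that SCs need to keep myelin, was the stable one, from 2113, 2358, 2191 and 903 CPM to 167, 162, 297 and 167 CPM (log2 fold change -3.25, SE 0.40, adjusted p 0.000716), with -1.98 in the single nerves (adjusted p 0.0539).

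Stress and transcription genes were mixed. Of 47 immediate early and heat shock genes 7 were lower and 3 higher (21.3%, beside 5.32% of all genes), and 11 lower and 2 higher with the block. The list median was -0.21 in the pooled and 0.47 in the single nerves, where 6 of the 10 called genes kept their direction. Egr2, the transcription factor that drives myelination, fell from 294, 453, 245 and 165 CPM to 27.8, 20.9, 39.1 and 19.2 CPM (log2 fold change -3.43, SE 0.40, adjusted p 0.000583), whereas the single nerves gave 0.24 with an SE of 0.81. Cryab, a small heat shock protein of glia, fell from 1331 ± 422 to 376 ± 83.9 CPM (-1.83, SE 0.33, adjusted p 0.00725). Gadd45a, which responds to DNA damage and stress, rose from 12.6, 16.6, 18.1 and 20.9 CPM to 323, 184, 342 and 364 CPM (4.15, SE 0.52, adjusted p 0.000726). Prdx5, an antioxidant enzyme, rose from 129 ± 31.1 to 369.8 ± 55.9 CPM (1.52, SE 0.22, adjusted p 0.00172), although the single nerves gave -0.24, and Gsto1, a glutathione transferase, rose from 15.4 ± 1.79 to 61.1 ± 13.8 CPM (1.98, SE 0.29, adjusted p 0.00199). Of 46 p53 target and apoptosis genes 1 was higher, Gadd45a, and 1 lower, Cdkn1a, a share of 4.35% beside 5.32% of all genes.

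Of 32 synaptic and neuronal secretory genes 3 were higher and 2 lower (15.6%, beside 5.32% of all genes), and 2 higher and 1 lower with the block. The median log2 fold change was -0.91 in the pooled and 0.21 in the single nerves, where 4 of the 5 called genes kept their direction. Tubb3, the neuronal beta tubulin on the cytoskeletal list, rose from 5.38, 8.29, 0.303 and 5.32 CPM to 70.3, 43.0, 89.0 and 68.1 CPM (log2 fold change 3.80, SE 0.70, adjusted p 0.00734), and Dclk1, a microtubule-binding kinase, from 36.7 ± 24.9 to 239 ± 24.7 CPM (2.70, SE 0.46, adjusted p 0.0043), with 3.32 in the single nerves (adjusted p 0.0232). Gria1, an AMPA-type glutamate receptor subunit, was at 0, 0.254, 0 and 0.0807 CPM in iSCs and 64.6, 127, 49.8 and 84.7 CPM in dSCs (9.62, SE 1.19, adjusted p 0.000716), with 8.98 in the single nerves (adjusted p 0.0306). Sncg, encoding gamma-synuclein, went down from 520.2, 499, 503 and 283 CPM to 24.2, 24.9, 24.7 and 6.12 CPM (-4.50, SE 0.52, adjusted p 0.000552). H19, an imprinted noncoding RNA of growing tissues, rose from 32.5, 9.05, 51.0 and 43.8 CPM to 436, 287, 185 and 299.6 CPM (3.15, SE 0.50, adjusted p 0.00306), with 3.45 in the single nerves (adjusted p 0.00119). The 10 neuron markers summed to 8.21 to 19.1 CPM in iSCs and 42.9 to 99.6 CPM in dSCs, but Tubb3 is on that list, and the other 9 summed to 2.90 to 18.8 CPM in iSCs and 0 to 10.7 CPM in dSCs, with Syt1 at 0 in all 8 libraries.

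Among regulators of G protein signalling, Rgs8 had no count in iSCs and 18.9, 10.7, 29.0 and 28.6 CPM in dSCs, at least 422-fold higher (adjusted p 0.00284), and was at 0 in all 5 single iSC nerves. Rgs16 rose from 11.6, 10.9, 10.5 and 9.19 CPM to 56.5, 58.4, 158 and 111 CPM (log2 fold change 3.19, SE 0.48, adjusted p 0.00229). Rgs11, of the same family, fell from 58.7, 40.1, 51.5 and 18.2 CPM to 0, 0, 0.148 and 0 CPM (-9.87, SE 1.36, adjusted p 0.00284, 0.0907 with the block). The family thus held genes that were higher and lower. Kng1, encoding kininogen, the precursor of bradykinin, reached 50.6, 62.8, 43.1 and 20.1 CPM in dSCs from a single iSC value of 0.0807 CPM (adjusted p 0.000716), with 9.59 in the single nerves (adjusted p 0.0489). Gzmb, encoding granzyme B, the protease of cytotoxic lymphocytes, reached 47.1, 21.9, 57.7 and 32.2 CPM against at most 0.0807 CPM in iSCs (9.79, SE 1.31, adjusted p 0.00114). Markers of T, B and NK cells summed to 1.27 to 14.4 CPM in iSCs and 13.8 to 31.4 CPM in dSCs, so the groups overlapped, with Ms4a1 at 0 in all 8 libraries.

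The largest decreases were of genes that no dSC pool held. Mmd2 was at 84.6, 196, 40.7 and 42.5 CPM in iSCs and without a count in dSCs, at least 1663-fold lower (adjusted p 0.0251, 0.0512 with the block and 0.0671 without distal pool 5). Lrrtm4, a synaptic adhesion molecule, was at 64.4, 140.0, 51.8 and 10.8 CPM in iSCs, at least 1221-fold lower in dSCs (adjusted p 0.00786, 0.0778 with the block). Fgf4, a fibroblast growth factor best known from the early embryo, was at 47.3, 44.6, 45.2 and 23.2 CPM in iSCs, at least 734-fold lower in dSCs (adjusted p 0.00274, 0.0947 with the block). A dSC library of the single nerves held Mmd2 at 17.1 CPM and Lrrtm4 at 23.8 CPM, with log2 fold changes of -3.26 (adjusted p 0.651) and -2.03 (adjusted p 0.777), and Fgf4 was at 0 to 4.68 CPM in iSCs and 0 in dSCs. All 3 calls were lost with the block. In that fit intact pool 4 stood alone, and distal pool 3 shared its pool only with a bridge library. Ddn, encoding dendrin, a protein of synapses and podocytes, kept its call, from 95.0, 94.5, 81.1 and 45.9 CPM to 0, 0, 0.443 and 0 CPM (log2 fold change -9.39, SE 1.77, adjusted p 0.00883, 0.019 with the block).

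The single gene whose change differed between pooled and single nerves was Slc6a13, a carrier of GABA and taurine. It was at 13.3, 19.4, 36.3 and 45.6 CPM in the pooled iSCs and 0.995, 23.9, 16.3 and 6.94 CPM in the pooled dSCs (log2 fold change -1.25, SE 1.46, adjusted p 0.805). In the single nerves it was at 51.0 to 156 CPM in the 5 iSC libraries and at 0, 0 and 0.101 CPM in the 3 dSC libraries (-11.01, SE 2.36, adjusted p 0.019). The difference was 9.73 on the log2 scale (SE 1.43, adjusted p 0.0366). Leaving out each library in turn gave between 0 and 8 genes that differed.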

How the data were processed

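The authors sorted tdTomato-positive cells, made Smart-seq2 libraries with ERCC spike-ins, aligned the reads to mm9 with TopHat2 2.0.11 and counted them per gene with HTSeq, and the files were deposited as raw counts. Such libraries keep no strand and no molecular identifiers, so PCR copies are counted as reads. Groups came from the labels. Lane files of 1 library were summed, and spike-in rows and unassigned reads were removed. Genes passing filterByExpr were tested in edgeR 4.0.16 (quasi-likelihood, TMM, Benjamini-Hochberg adjustment, threshold 0.05) under R 4.3.3, pooled and single nerves in separate fits that also held the other regions or days. DESeq2 1.42.0, other filters and scalings, each library left out and the pool number as a block were alternatives. The labels give pools 1, 2 and 5 of both regions the same animals. Deviations of same-pool libraries correlated between -0.0524 and 0.00218. The p-values measure the spread between pools. The gene lists, markers and genes of interest were chosen with earlier results of these data known. Named genes were the 15 largest changes per direction with a mean of at least 10 CPM, up to 5 per list and direction by adjusted p, markers, and genes that differed between pooled and single nerves, and not every such gene is given. Scripts were tested on simulated data. Some items are not reported here.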

Additional observations from a re-analysis of the deposited data

Results flagged for a closer look

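Of 198 groups of 4 values searched, 22 held a library whose gap to its nearest neighbour exceeded 0.829 of the group's range. For normally distributed values chance alone flags about 1 group in 20, but these were unlogged CPM, so the chance rate here is not known. Where all values but 1 were 0, as for Aspm, Kng1, Ddn and Rgs11, the rule flags the group whatever the level. In intact pool 5 the mast cell and granulocyte markers summed to 1052 CPM beside at most 61.8 CPM in the other iSC pools, Cd74 was at 2843 CPM and Plin2 at 237 CPM. The same pool was lowest of the iSC pools for Adam10 at 437 CPM, Sncg at 283 CPM, Ndrg1 at 903 CPM and Fgf4 at 23.2 CPM. It also held the only iSC value above 0 for Kng1, 0.0807 CPM, as intact pool 4 did for Aspm, 0.0757 CPM. Intact pool 4 was highest for Gsto1 at 18.1 CPM.

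Distal pool 5 had the highest ribosomal protein sum, 26828 CPM, and the highest Scn7a of the dSC pools, 170.4 CPM, and was lowest for Slc36a2 at 3.66 CPM and Sncg at 6.12 CPM. Distal pool 3 was highest for Ngfr at 1801 CPM, Elovl1 at 222 CPM, Ndrg1 at 297 CPM, Rgs11 at 0.148 CPM and Ddn at 0.443 CPM, and lowest for Mmp19 at 169.7 CPM. Distal pool 1 was highest for Aurkb at 36.0 CPM, and distal pool 2 lowest for Sema4f at 13.9 CPM.

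For Slc6a13 the change in pooled nerves minus the change in single nerves was 9.73 on the log2 scale, and edgeR's test of that difference gave an adjusted p of 0.0366.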

How the results depend on the processing

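The pooled comparison gave 732 genes, 1536 with DESeq2, and 287 under a replicate block of pool numbers. It gave between 310 (without intact pool 1) and 1007 (without intact pool 5) with 1 library left out. The single nerves gave 86 genes, 894 with DESeq2, 4 when fitted without the other regions and days, and 33 (without distal nerve 1) to 116 (without distal nerve 3) with 1 nerve left out. The difference between them gave 1 gene, 141 with DESeq2 and 0 to 8 with 1 library left out. The cause of these shifts was not tested. Of 86 named genes called, the block kept 75, DESeq2 and its size factors 86 each, and leaving out 1 library 81 to 86, and none reversed. Most named genes were picked for a small adjusted p or a large change, so these counts do not describe all called genes. Over all genes the block fit called 287 beside 732.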
